A study of Mus musculus with 10 samples.

Results

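The dystrophin-glycoprotein complex was described at the RNA level by 8 of its genes: dystrophin (Dmd), its paralog utrophin (Utrn), dystroglycan (Dag1), the sarcoglycans Sgca, Sgcb and Sgcd, alpha-dystrobrevin (Dtna) and sarcospan (Sspn). They were taken by symbol from tables of 25239 gene symbols, all 8 were found, and all 8 passed the filter on low values. The tables hold 10 RNA libraries of mouse cardiomyocytes, 5 from the atrium and 5 from the ventricle. Both groups are labelled WT, and no treatment is named. The sources used here do not give strain, age, sex or how the cells were isolated. They also do not say whether the replicates are different animals, so a p-value here reflects only variation among 5 libraries a chamber, some of which can be technical.

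The complex spans the muscle cell membrane. Dystrophin binds actin filaments inside the cell and beta-dystroglycan at the membrane, and alpha-dystroglycan, made from the same Dag1 transcript, binds laminin outside. The sarcoglycans and sarcospan form a subcomplex beside dystroglycan, and dystrobrevins and syntrophins bind the end of dystrophin and tether signalling proteins. Utrophin can take the place of dystrophin in the same assembly. Loss of dystrophin, of several sarcoglycans or of the sugars on alpha-dystroglycan causes muscular dystrophy, often with cardiomyopathy.

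Values are normalized reads, that is, reads per gene divided by a size factor for each library. The libraries held 1790402 to 12842635 reads, and they fell into 2 sets that the labels do not name. Replicates 1 and 2 of both chambers (4 libraries) had 1790402 to 4445287 reads with 0.215% to 0.480% on the ribosomal precursor Rn45s, and replicates 3 to 5 (6 libraries) had 11163805 to 12842635 reads with 23.1% to 29.8% on it. Each set holds both chambers, so chamber differences are also given within each set. Marker sums followed the labels: 6 of 6 atrial markers were called higher in atrial libraries (sum 129808 to 446418, against 2739 to 28028 in ventricular ones) and 5 of 5 ventricular markers in ventricular libraries (sum 146828 to 204992, against 5509 to 8257). None of 8 general cardiomyocyte markers was at 0.

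Utrn was higher in atrial and Dtna in ventricular cardiomyocytes, and the other 6 members did not pass the test. Calls are from limma's moderated test on log2(normalized reads + 1) with adjusted p below 0.05 over all 12422 genes tested, of which 14.7% were called, 8.12% toward atrial and 6.56% toward ventricular libraries. Among the 8 members, 4 estimates were positive (atrial higher) and 4 negative, with a median log2 difference of 0.01 against -0.01 over all tested genes. With libraries scaled to equal totals, 65.3% of all calls were toward atrial cells, against 55.3% under the deposited scaling. With the replicate number as a block, 32.3% of all genes were called and Sgca joined Dtna among the members higher in ventricular libraries.

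**Figure D1:**
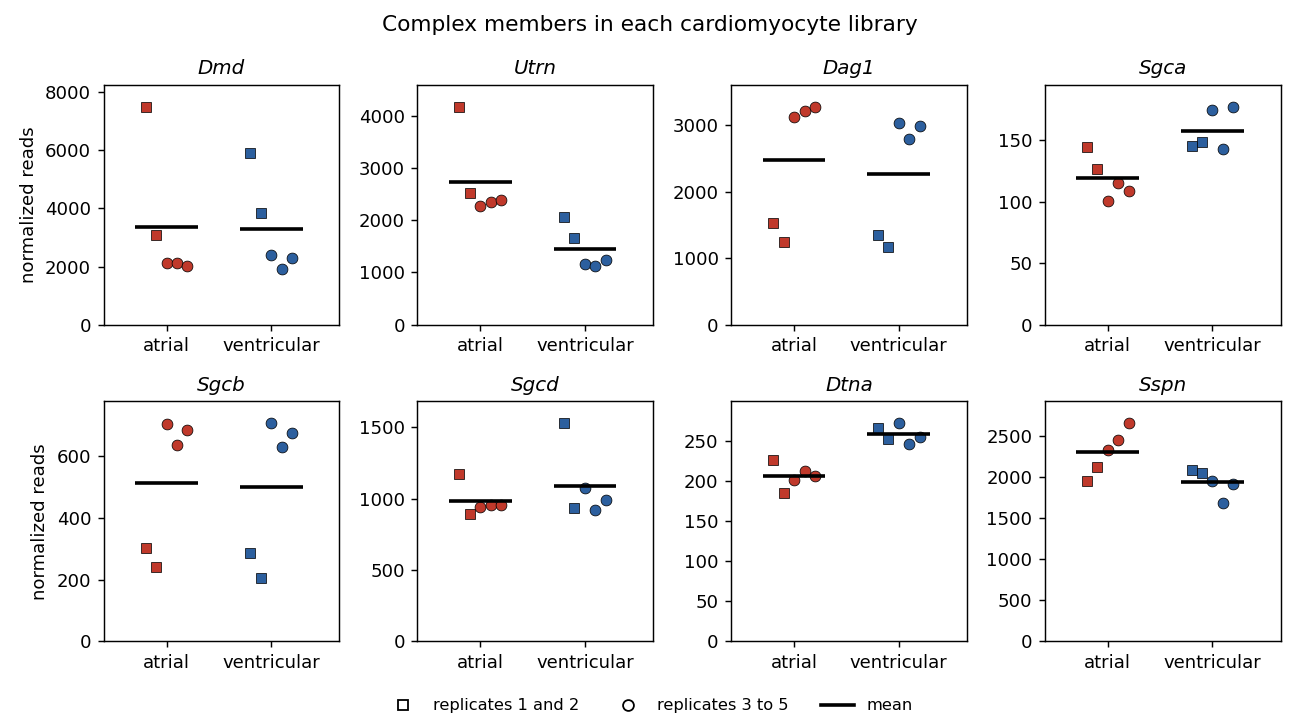
Normalized reads (vertical axes, from 0) of the 8 members in each atrial (red) and ventricular (blue) library. Squares are replicates 1 and 2, circles are replicates 3 to 5, and bars are the means of 5 libraries. Utrn and Dtna have no overlap between chambers, while Dmd, Dag1 and Sgcb are divided by library set more than by chamber.

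Utrophin, the autosomal paralog of dystrophin, showed the only atrial call among the members. Utrn (ENSMUSG00000019820, GRCm38 chromosome 10, 12382188 to 12869365, whole gene with introns) stood at 4169, 2518, 2264, 2350 and 2390 normalized reads in atrial replicates 1 to 5 and at 2052, 1657, 1163, 1123 and 1234 in ventricular replicates 1 to 5. Every atrial library lay above every ventricular one, which held for 7.84% of tested genes in this direction. The means were 2738 ± 805 and 1446 ± 400 (SD, n = 5), a ratio of 1.89, and the atrial library of each same-numbered pair was 1.52 to 2.09 times the ventricular one. The log2 difference was 0.92 ± 0.22 (SE; limma, adjusted p = 0.0155). Within replicates 1 and 2 alone it was 0.81 ± 0.25 (limma, adjusted p = 0.131; 5.14% of all genes were called there, 3.09% atrial and 2.04% ventricular), and within replicates 3 to 5 it was 0.99 ± 0.06 (52.8% called, 26.2% atrial and 26.6% ventricular). The difference between these was 0.18 ± 0.25 (limma, adjusted p = 0.749).

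Epicardial markers had the chamber direction of Utrn: all 7 were called higher in atrial libraries, with sums of 2674 to 6305 normalized reads against 346 to 1730. Within each chamber the epicardial sum was lowest in replicate 1 (2674 and 346), where Utrn was highest (4169 and 2052). The 8 endothelial markers did not move together. Kdr and Tek were called higher in atrial libraries. Tie1 (0.74), Emcn (0.83) and Vwf (1.38) had positive estimates that were not called, though Vwf was with the block (limma, adjusted p = 0.0198). The estimates of Pecam1 (-0.48), Cdh5 (-0.87) and Flt1 (-0.86) were negative. Within replicates 1 and 2 these were 0.64, 0.47 and 0.83 (SE of 1.91 to 2.31). Within replicates 3 to 5 they were -1.23, -1.76 and -1.99 (limma, adjusted p = 0.00118, 3.28e-06 and 5.74e-07). There the atrial libraries had 3.86 to 7.95 normalized reads of these genes. The endothelial sum was 737 to 3498 in atrial and 229 to 1512 in ventricular libraries. Within each chamber it was highest in replicate 1 (3498 and 1512), as Utrn was. The sum was also higher in the atrial library of each same-numbered pair. In replicates 3 to 5, however, most of it came from Kdr and Tek (318 and 530 of 882 in atrial replicate 3). None of the endothelial markers was at 0 in all libraries. The part of these cells in the Utrn difference was not tested, and in such bulk samples fewer cells of a type and less RNA per cell cannot be told apart.

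Dystrophin itself had nearly equal means in the 2 chambers. Dmd (ENSMUSG00000045103, chromosome X, 82948870 to 85206141) stood at 7493, 3069, 2109, 2121 and 2035 normalized reads in atrial replicates 1 to 5 and at 5913, 3856, 2411, 1928 and 2296 in ventricular replicates 1 to 5. Replicates 1 and 2 were high and replicates 3 to 5 low in both chambers, and the chambers overlapped. The means were 3365 ± 2347 and 3281 ± 1644 (SD, n = 5). This is a log2 difference of -0.04 ± 0.41 (limma, adjusted p = 0.971). Without the block, its 95% interval, -0.94 to 0.86, allows an atrial to ventricular ratio from 0.52 to 1.81. That SE also holds the difference between library sets, which both chambers share. With the replicate block the difference was -0.04 ± 0.10 (limma, adjusted p = 0.780). Within replicates 3 to 5 the spread was smaller, and the difference was -0.08 ± 0.07 (limma, adjusted p = 0.363).

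Set against each other per exon length, the 2 paralogs stood in a different ratio in the chambers. The ratio of Utrn to Dmd reads per kb of exon was 0.774, 1.14, 1.49, 1.54 and 1.63 in atrial replicates 1 to 5 and 0.483, 0.598, 0.671, 0.810 and 0.748 in ventricular replicates 1 to 5. Atrial replicate 1 lay below ventricular replicate 4, and the ratio was otherwise higher in every atrial library than in any ventricular one. In each same-numbered pair the atrial ratio was the higher, by 1.60 to 2.23 times. A ratio within a library does not depend on the scaling between libraries, but it shows unequal levels and not which gene differs. Its size depends on the exon lengths used, so it does not settle which of the 2 paralogs is the more abundant.

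**Figure D2:**
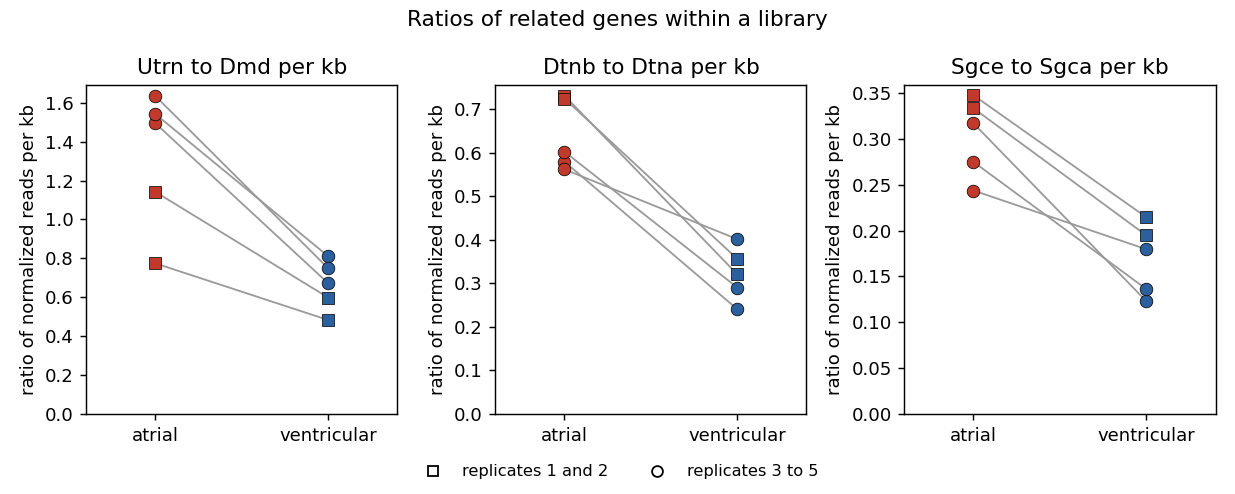
Ratio of normalized reads per kb of exon (vertical axes, from 0) between related genes in each atrial and ventricular library, with grey lines joining libraries of the same replicate number. All 5 lines fall from atrium to ventricle in each panel, and for Dtnb to Dtna and Sgce to Sgca the chambers do not overlap.

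Dystroglycan, the laminin receptor at the core of the complex, was not called between chambers. Dag1 (ENSMUSG00000039952, chromosome 9, 108204634 to 108263958) stood at 1528, 1247, 3115, 3215 and 3275 normalized reads in atrial replicates 1 to 5 and at 1349, 1160, 3026, 2789 and 2991 in ventricular replicates 1 to 5. Here replicates 1 and 2 were low and replicates 3 to 5 high, the reverse of Dmd. The atrial library was the higher in 5 of 5 same-numbered pairs, by 1.03 to 1.15 times, where 40.9% of tested genes had 1 direction in all 5 pairs. The log2 difference was 0.13 ± 0.38 (95% interval -0.70 to 0.96; limma, adjusted p = 0.899). This SE also holds the difference between library sets. With the replicate block it was 0.13 ± 0.06 (limma, adjusted p = 0.121). The difference was 0.14 ± 0.19 within replicates 1 and 2 and 0.13 ± 0.06 within replicates 3 to 5, not called in either.

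Beta-sarcoglycan followed the same division of the libraries as Dag1. Sgcb (ENSMUSG00000029156, chromosome 5, 73632749 to 73647790), a subunit present in the sarcoglycan complexes of striated and of smooth muscle, stood at 301, 242, 703, 636 and 685 normalized reads in atrial replicates 1 to 5 and at 287, 205, 706, 629 and 674 in ventricular replicates 1 to 5. The chambers overlapped almost fully, and differed by 0.07 ± 0.43 on the log2 scale (95% interval -0.88 to 1.02; limma, adjusted p = 0.957). With the replicate block this was 0.07 ± 0.07 (limma, adjusted p = 0.492). Over the 10 libraries the log2 values of Sgcb and Dag1 had a Pearson r of 0.99, and those of Dag1 and Dmd of -0.78. These correlations describe libraries that share the set division.

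Alpha-sarcoglycan, the subunit restricted to striated muscle, was higher in most ventricular libraries but passed the test only in some fits. Sgca (ENSMUSG00000001508, chromosome 11, 94962791 to 94976327) stood at 145, 127, 101, 116 and 109 normalized reads in atrial replicates 1 to 5 and at 145, 149, 175, 143 and 177 in ventricular replicates 1 to 5. Atrial replicate 1 equalled the lower ventricular libraries, and the other 4 atrial libraries lay below all ventricular ones. Atrial libraries averaged 119 ± 17.2 and ventricular ones 158 ± 16.8 (SD, n = 5). Their log2 difference was -0.41 ± 0.13 (limma, adjusted p = 0.0692; 0.0452 with the replicate block and 0.0222 with library set as a term, where 31.8% of genes were called). In DESeq2, where 20.7% of genes were called and 9.81% toward ventricular libraries, the adjusted p was 0.0205. In edgeR, with 8.77% called atrial and 7.29% ventricular, it was 0.0666. Without atrial replicate 1 the difference was -0.48 (adjusted p = 0.0297). It was -0.12 ± 0.26 within replicates 1 and 2 and -0.60 ± 0.10 within replicates 3 to 5, and the difference between the sets did not pass the test (-0.48 ± 0.19; limma, adjusted p = 0.200). These values rest on 42 to 287 reads per library.

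Delta-sarcoglycan did not differ between chambers beyond its spread. Sgcd (ENSMUSG00000020354, chromosome 11, 46896253 to 47988969), another subunit shared by striated and smooth muscle, stood at 1175, 894, 940, 956 and 958 normalized reads in atrial replicates 1 to 5 and at 1529, 936, 1076, 923 and 994 in ventricular replicates 1 to 5. Replicate 1 was the highest library of each chamber and the other 8 lay close together. The log2 difference was -0.13 ± 0.15 (95% interval -0.46 to 0.20; limma, adjusted p = 0.701). Of 8 markers of smooth muscle and pericytes, 3 were called higher in ventricular libraries (sums of 1832 to 6677 in atrial and 9546 to 15948 in ventricular libraries, none at 0 in all). The estimates of 6 were negative and of 2 positive. The positive ones were Cnn1 (1.76) and Kcnj8 (1.31), not called, though Cnn1 was called atrial with the block (limma, adjusted p = 0.000100). The part of these cells in the sarcoglycan values was not tested.

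Sarcospan, a small protein with 4 membrane-spanning segments that binds the sarcoglycans, was called between chambers only within replicates 3 to 5. Sspn (ENSMUSG00000030255, chromosome 6, 145931641 to 145965223) stood at 1950, 2126, 2328, 2456 and 2658 normalized reads in atrial replicates 1 to 5 and at 2093, 2052, 1958, 1682 and 1912 in ventricular replicates 1 to 5. Within replicates 3 to 5 all atrial libraries lay above all ventricular ones, and within replicates 1 and 2 the chambers overlapped. Over all libraries the log2 difference was 0.24 ± 0.11 (95% interval -0.01 to 0.50; limma, adjusted p = 0.210). It was 0.42 ± 0.06 within replicates 3 to 5 (limma, adjusted p = 3.64e-06), where 52.8% of all tested genes were called, 26.2% atrial. Within replicates 1 and 2 it was -0.03 ± 0.17. The difference between the sets did not pass the test (0.45 ± 0.13; limma, adjusted p = 0.0830).

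Alpha-dystrobrevin, which links dystrophin to syntrophins, was the member called higher in ventricular cardiomyocytes. Dtna (ENSMUSG00000024302, chromosome 18, 23415135 to 23659715) stood at 226, 186, 202, 213 and 207 normalized reads in atrial replicates 1 to 5 and at 266, 253, 273, 247 and 255 in ventricular replicates 1 to 5. The chambers did not overlap, as for 6.55% of tested genes in this direction, and Dtna had almost the same level in both library sets. The means were 207 ± 14.8 and 259 ± 10.5 (SD, n = 5), a ratio of 1.25. The difference was -0.32 ± 0.10 on the log2 scale (limma, adjusted p = 0.0435). The adjusted p lay close to the threshold: over the 10 fits that each left out 1 library it ranged from 0.0306 to 0.116 and the call was lost in 9, and with libraries scaled to equal totals it was 0.317 for a difference of -0.26.

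**Figure D3:**
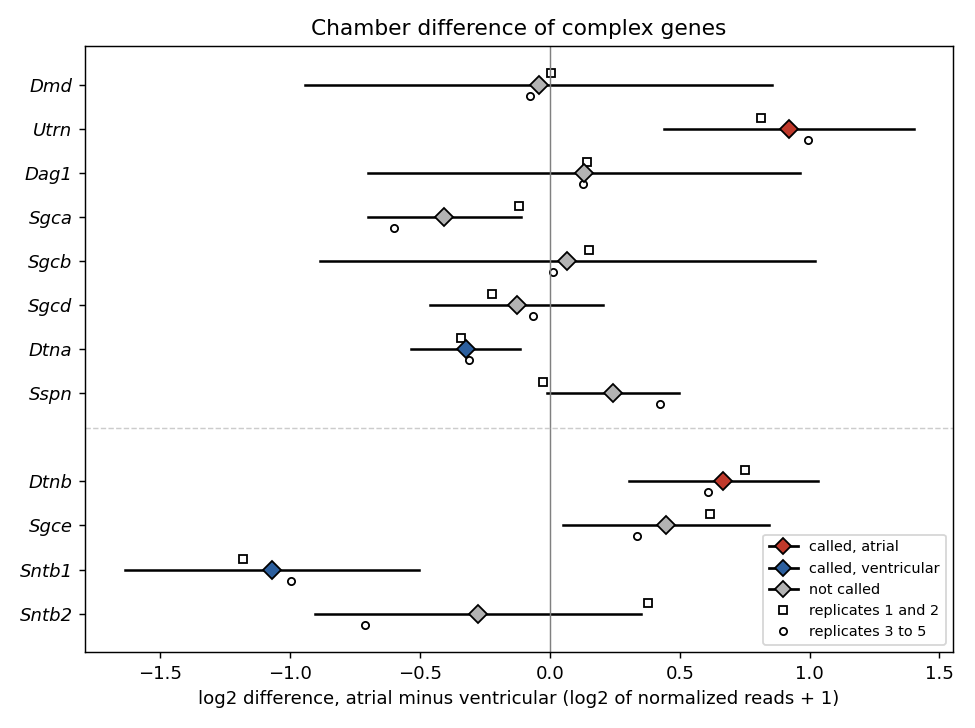
Log2 difference between atrial and ventricular libraries (horizontal axis, atrial minus ventricular) with its 95% interval for the 8 members (above the dashed line) and 4 other subunit genes. Filled diamonds are all 10 libraries, coloured where called, and open symbols give the difference within each library set. Utrn (0.92) and Dtnb (0.67) lie to the atrial side, Sntb1 (-1.07) and Dtna (-0.32) to the ventricular side.

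The rest of the complex was taken from a list of 11 further subunit genes, of which 6 passed the filter. Of these, 1 was called higher in atrial and 2 in ventricular libraries, where 8.12% and 6.56% of all tested genes were. Their median log2 difference was -0.33 (-0.01 over all tested genes). The 5 below the filter were Sgcz, Sntg1, Sntg2, Drp2 and Dytn. With the replicate block the counts were 2 and 3, with Sgce among those called atrial, where 16.3% and 16.0% of all tested genes were called.

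Syntrophins, adaptors that bind dystrophin and dystrobrevin and recruit channels and enzymes, included a gene called higher in ventricular libraries. Sntb1 (beta-1-syntrophin; ENSMUSG00000060429, chromosome 15, 55636388 to 55906949) stood at 405, 334, 225, 233 and 221 normalized reads in atrial replicates 1 to 5 against 778, 899, 480, 430 and 448 in ventricular ones (log2 difference of -1.07 ± 0.26; limma, adjusted p = 0.0166, and 0.0858 with equal totals). Every ventricular library lay above every atrial one, and the estimate was larger in size than that of any of the 8 members. Sntb2 had a difference of -0.28 ± 0.28 (limma, adjusted p = 0.645), which was 0.38 within replicates 1 and 2 and -0.71 within replicates 3 to 5. That difference between the sets passed the test (limma, adjusted p = 0.0166).

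Beta-dystrobrevin went the opposite way from Dtna. Dtnb (ENSMUSG00000071454, chromosome 12, 3572381 to 3781796), the dystrobrevin best known outside muscle, stood at 93.8, 76.3, 66.5, 67.8 and 70.8 normalized reads in atrial replicates 1 to 5 and at 48.4, 51.2, 37.2, 56.1 and 42.0 in ventricular ones. All atrial libraries lay above all ventricular libraries, a difference of 0.67 ± 0.17 on the log2 scale (limma, adjusted p = 0.0193; 0.0553 without ventricular replicate 3, 0.0535 without ventricular replicate 5 and 0.0591 with equal totals). The ratio of Dtnb to Dtna reads per kb of exon was 0.562 to 0.731 in atrial and 0.240 to 0.401 in ventricular libraries, without overlap. This follows from the values of both genes, which do not overlap in opposite directions, and is no separate evidence. Dtnb remained below Dtna per length in all 10 libraries by this measure, which divides Dtna by a long exon set of many isoforms (16.9 kb; its longest transcript has 6.3 kb).

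Epsilon-sarcoglycan did not pass the test without the block. Sgce, the broadly expressed relative of Sgca, averaged 223 ± 55.5 normalized reads in atrial against 161 ± 24.3 in ventricular libraries (SD, n = 5), a difference of 0.45 ± 0.18 (limma, adjusted p = 0.138; 0.0130 with the block). Per kb of exon, the ratio of Sgce to Sgca was 0.244 to 0.347 in atrial and 0.123 to 0.214 in ventricular libraries, without overlap. Among the ratios of complex genes that were computed, only this ratio and that of Dtnb to Dtna did not overlap between chambers.

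Per kb of exon, sarcospan stood at or near the top of the members in every library and alpha-dystrobrevin at the bottom. Sspn had 461 ± 55.3 normalized reads per kb in atrial and 388 ± 32.2 in ventricular libraries (SD, n = 5), and ranked 1 or 2 of the 8 in all 10 libraries. Dag1 followed with 389 ± 157 and 356 ± 146, a mean that does not differ from that of Sspn beyond its spread. Its place changed with the library: Dag1 ranked 4 in atrial replicate 1, where it had 240 reads per kb against 315 for Dmd and 244 for Utrn, 3 in ventricular replicate 1, and 1 or 2 in the other 8 libraries. Dtna, with 12.2 ± 0.88 and 15.3 ± 0.62, ranked 8 in every library. Between these, Utrn averaged 160 ± 47.1 and 84.5 ± 23.4, Dmd 141 ± 98.6 and 138 ± 69.1, Sgcb 127 ± 55.1 and 123 ± 58.1, Sgcd 119 ± 13.3 and 132 ± 30.5, and Sgca 68.7 ± 9.91 and 91.0 ± 9.67 reads per kb in atrial and ventricular libraries. Sgca lay below Sgcd without overlap in either chamber, and their ratio was 0.452 to 0.849 in all 10 libraries. The libraries of neighbours in each chamber's middle order otherwise overlapped, and the order changed with the library set: Sgcb ranked 7 in all 4 libraries of replicates 1 and 2 and 3 in all 6 of replicates 3 to 5. Within replicates 3 to 5, Utrn ranked 4 in the atrial and 7 in the ventricular libraries. The middle order also depends on the length used. Per kb of the longest transcript, Dmd averaged 226 and Utrn 221 in atrial libraries, and Sgcd 245 and Dmd 220 in ventricular ones.

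**Figure D4:**
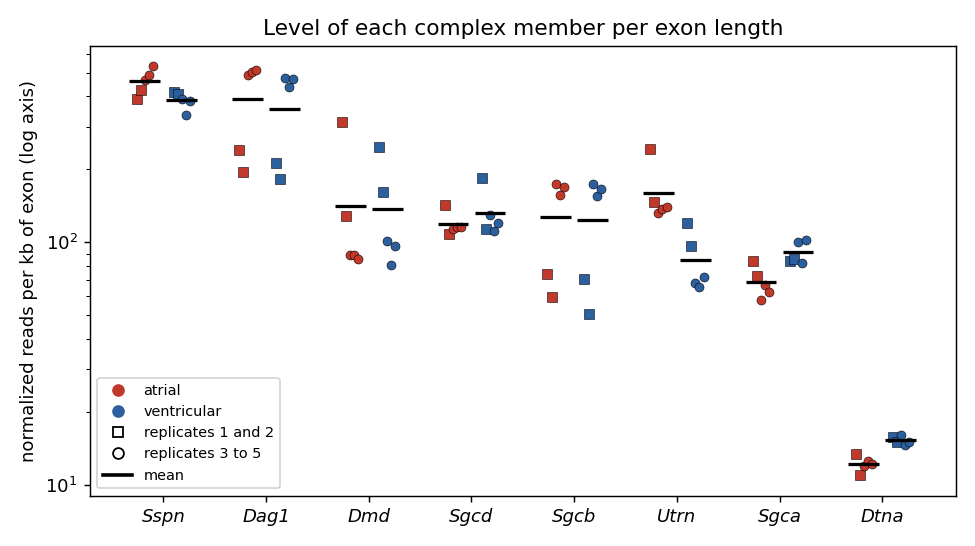
Normalized reads per kb of exon (vertical log axis) of each member in atrial (red) and ventricular (blue) libraries, with bars at the mean of 5 libraries, ordered by mean level. Sspn and Dag1 have the highest means and Dtna is lowest, while Sgcb, Dag1 and Dmd spread between squares (replicates 1 and 2) and circles (replicates 3 to 5).

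The members divided by library set as well as by chamber. With chamber as a term, 52.7% of tested genes differed between replicates 3 to 5 and replicates 1 and 2. Dag1 and Sgcb were higher in replicates 3 to 5, by 1.22 ± 0.07 and 1.39 ± 0.10 on the log2 scale, and Dmd and Utrn were lower there, by -1.16 ± 0.21 and -0.56 ± 0.12 (limma, adjusted p = 0.00117 for Dmd and 0.00254 for Utrn). For Dmd this is a 2.23-fold difference. The other 4 members did not pass this test, with differences from -0.19 (Sgcd) to 0.06 (Sspn). Depth and Rn45s share move with these sets, and their part in the differences was not tested. For no member did the chamber difference itself differ between the sets past the test, which 5.21% of all tested genes did (limma; Sgca and Sspn were below 0.05 only before adjustment).

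**Figure D5:**
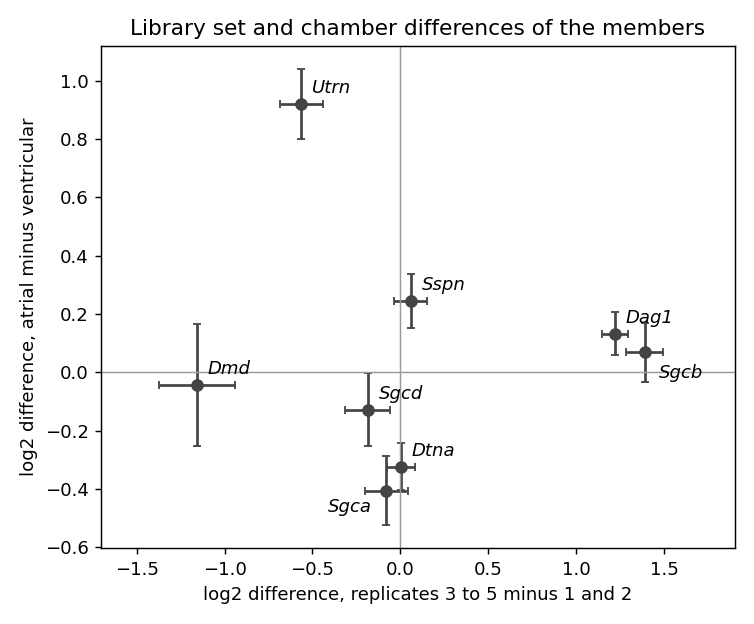
For each member, the log2 difference between library sets (horizontal axis, replicates 3 to 5 minus replicates 1 and 2) against the log2 difference between chambers (vertical axis, atrial minus ventricular), both from 1 fit with SE bars. Dag1 and Sgcb lie far right, Dmd far left, and Utrn alone lies high above 0.

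Upstream sequences are shown for the 3 members whose RefSeq start coincides with the annotated gene start. They are Dmd (higher in replicates 1 and 2), Sgca (lower in most atrial libraries) and Dag1 (higher in replicates 3 to 5). The members called between chambers, Utrn and Dtna, are not among them. Of the 8 members, 7 had a window in the RefSeq table (GRCm38.p6). The 250 bases before the start site are printed 5′ to 3′ in the direction of the gene, from chrX:82948620-82948869 (+ strand), chr11:94976328-94976577 (- strand) and chr9:108263959-108264208 (- strand). Capitals mark matches, on either strand, to the E-box CANNTG, the GC box GGGCGG, the CArG box and the MEF2 site, of which none overlapped another. Searched too but not marked were the GATA motif AGATAA, the T-box motif GGTGTG, the Ets motif TTCCGG and the TATA box TATAAA, whose only match in these windows, a TATA box in Dmd, overlaps the MEF2 site.
Dmd: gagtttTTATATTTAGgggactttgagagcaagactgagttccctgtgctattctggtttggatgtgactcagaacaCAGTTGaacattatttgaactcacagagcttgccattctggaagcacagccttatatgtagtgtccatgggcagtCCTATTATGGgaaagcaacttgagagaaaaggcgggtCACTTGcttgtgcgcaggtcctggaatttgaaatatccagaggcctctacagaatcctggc
Sgca: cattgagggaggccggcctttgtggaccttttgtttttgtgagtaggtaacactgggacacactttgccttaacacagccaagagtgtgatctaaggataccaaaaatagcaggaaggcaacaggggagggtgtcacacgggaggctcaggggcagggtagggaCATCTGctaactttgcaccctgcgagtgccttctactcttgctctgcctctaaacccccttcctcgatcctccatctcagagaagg
Dag1: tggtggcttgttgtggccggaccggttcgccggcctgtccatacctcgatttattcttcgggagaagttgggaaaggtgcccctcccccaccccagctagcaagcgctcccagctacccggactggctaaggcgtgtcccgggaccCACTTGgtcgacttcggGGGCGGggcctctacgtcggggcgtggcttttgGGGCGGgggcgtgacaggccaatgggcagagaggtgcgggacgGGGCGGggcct

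The Dmd window held 1 CArG box (CCTATTATGG, the serum response factor motif), beginning 98 bases before the start, 1 MEF2 site and 2 E-boxes. Of all 32841 RefSeq windows of this length, 1.47% held a CArG box, 2.92% a MEF2 site and 66.2% an E-box. The Sgca window held 1 E-box. The Dag1 window, with 67.6% G and C against 45.2% for Dmd and 52.8% for Sgca, held 3 GC boxes, a motif found in 32.7% of windows, and 1 E-box. The Utrn window of the table starts 7630 bases inside the annotated gene and is not shown. These matches describe letters in the windows and say nothing of binding.

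Genes with the most similar pattern over the 10 libraries, by Pearson r of log2 values among 7237 named genes with a mean of at least 100, were looked up for each member. For Utrn they were Nav3 (r = 0.99) and Jph1 (junctophilin 1; r = 0.98), both called higher in atrial libraries (log2 differences of 1.66 and 1.11). For Dtna they were Nt5dc3 (0.98) and Ablim1 (0.97), called higher in ventricular libraries (-0.66 and -0.85). Sgca was followed by Tubb2b (0.92) and Cavin4 (0.90), also called ventricular (-1.29 and -1.31). Dmd was followed by the mannose-6-phosphate receptor gene Igf2r (0.99) and by titin, Ttn (0.98). Dag1 (Slc25a23 and Wbp11, both r = 0.997), Sgcb (Jak1, 0.996, and Epas1, 0.995), Sgcd (Dyrk1a, 0.96, and Pard3, 0.95) and Sspn (Hdac11, 0.93, and Ralgps2, 0.92) had neighbours that passed no test between chambers. The points share libraries, depth and the set division. Genes picked for a high r over libraries of both chambers largely share the member's chamber direction, so their calls are no separate evidence.

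Genes around the complex were described by lists of its partners. Over 6 lists holding 84 genes of the tables, 75 were tested, 7 were called higher in atrial and 4 in ventricular libraries (limma, against 8.12% and 6.56% of all tested genes), and the median log2 difference was -0.06 (-0.01 over all). With the replicate block 15 and 16 were called, where 16.3% and 16.0% of all genes were. The members and these lists were chosen with earlier results of these data known.

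Among 12 cytoplasmic partners, 2 were called higher in atrial and 0 in ventricular libraries (2 and 2 with the block; median -0.15). Synm (synemin, an intermediate filament protein that binds dystrobrevin and dystrophin) stood at 633, 356, 300.5, 287 and 288 normalized reads in atrial replicates 1 to 5 and at 121, 97.5, 138, 155 and 157 in ventricular ones, a log2 difference of 1.42 ± 0.23 (limma, adjusted p = 0.00195). Its chambers did not overlap, and it shares its locus with Ttc23 on the opposite strand (mean 229 against 253 for Synm). Ank3 (ankyrin-G, a membrane adaptor) averaged 1382 ± 265 against 910 ± 147 (SD, n = 5), differing by 0.59 ± 0.18 (limma, adjusted p = 0.0447), with overlap, and its call was lost in 9 of the 10 fits that each left out 1 library (differences of 0.49 to 0.74, adjusted p = 0.00522 to 0.108). Cav3, muscle caveolin, averaged 589 ± 155 and 643 ± 44.8 (SD, n = 5; limma, adjusted p = 0.647), with the sign of its difference unlike in the library sets (0.19 within replicates 1 and 2, -0.39 within replicates 3 to 5).

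None of 11 tested extracellular ligand genes was called in either direction by limma without the block (1 higher in atrial and 2 in ventricular libraries with it; median -0.27). Lama2, the laminin alpha chain of muscle basement membrane, had a mean of 1688 ± 294 normalized reads in the atrium and 1868 ± 406 in the ventricle (SD, n = 5; -0.14 ± 0.18 on the log2 scale; limma, adjusted p = 0.745). The smallest p-values belonged to Lamb1 (-0.44 ± 0.16; limma, adjusted p = 0.100, and 0.0314 with the block) and Lama5 (0.46 ± 0.19; limma, adjusted p = 0.147, and 0.00319 with the block), so both were among the blocked calls. Fibroblasts also make these proteins, and the summed fibroblast markers were 21312 to 36361 in atrial and 9165 to 63474 in ventricular libraries (2 of 8 called, both ventricular, none at 0 in all). Their part was not tested.

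Of 17 tested genes for the sugars of alpha-dystroglycan, 1 was called higher in atrial and 0 in ventricular libraries (3 and 1 with the block; median 0.08). The call was Srd5a3 (polyprenol reductase, in the supply of dolichol for glycosylation), at 116 ± 8.93 against 68.6 ± 12.7 normalized reads (SD, n = 5), or 0.77 ± 0.15 on the log2 scale (limma, adjusted p = 0.00627). B3galnt2, which builds the glycan core, had non-overlapping chambers and a difference of 0.42 ± 0.14 (limma, adjusted p = 0.0779; 0.0198 with the block). It overlaps the more abundant Tbce on the opposite strand.

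Integrins are the other laminin receptors of the cell membrane. Of 15 tested genes, 2 were called higher in atrial and 1 in ventricular libraries (4 and 5 with the block; median -0.05). Itga6 (integrin alpha-6) stood at 1837, 1175, 688, 677 and 696 normalized reads in atrial replicates 1 to 5 and at 259, 110, 96.7, 82.2 and 104 in ventricular ones, a log2 difference of 2.96 ± 0.36 (limma, adjusted p = 0.000322). The other atrial call was Cd151, a tetraspanin that binds laminin-receptor integrins (0.57 ± 0.15; adjusted p = 0.0276, and 0.0718 to 0.0746 without atrial replicate 3, 4 or 5), and the ventricular call was Lims1 (PINCH-1, an adaptor of integrin-linked kinase; -0.82 ± 0.13; limma, adjusted p = 0.00194). Itga7, the muscle laminin receptor subunit, averaged 229 ± 31.7 and 230.5 ± 12.3 (SD, n = 5; limma, adjusted p = 0.958). Endothelial and epicardial cells also express Itga6. Their markers are given beside Utrn, the epicardial ones higher in atrial libraries and the endothelial ones in both directions, and their part was not tested.

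Among 14 tested genes of membrane repair and caveolae, 1 was called in each direction (3 and 3 with the block; median 0.06). Cav1 (caveolin-1) stood at 2083, 1842, 1592, 1488 and 1550 normalized reads in atrial replicates 1 to 5 and at 432, 248.6, 244, 306 and 284 in ventricular ones, a log2 difference of 2.51 ± 0.17 (limma, adjusted p = 4.50e-06). Cav1 is also abundant in endothelium, whose part was not tested. Cavin4, a caveolar coat protein of muscle, differed by -1.31 ± 0.37 (limma, adjusted p = 0.0387), by -0.31 within replicates 1 and 2 and -1.97 within replicates 3 to 5. Its call was lost in 8 of the 10 fits that each left out 1 library (differences of -1.66 to -1.14, adjusted p = 0.00133 to 0.0965) and in DESeq2 and edgeR (-1.04 and -1.05). Dysf (dysferlin, a membrane repair protein) averaged 345 ± 38.1 and 376 ± 78.4 (limma, adjusted p = 0.789).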

How the data were processed

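Per the labels, total RNA of atrial and ventricular cardiomyocytes was sequenced after library preparation with ScriptSeq v2. Trimmomatic, HISAT2 and featureCounts on GRCm38 (mm10) are named in the submitters' processing notes. The sources used here give neither their versions nor the annotation or strand setting. Per the file headers, the deposited signal is a gene's reads after DESeq2 normalization by the authors. Dividing by each library's step gave whole reads, within 0.01, for 100% of values. Depending on the library, 3 reads, the most that a 0 leaves possible by counting error alone, are worth 1.70 to 10.4 normalized reads.

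The 12422 genes averaging 10 or more normalized reads were tested with limma 3.58.1 (R 4.3.3; trend and robust variance, Benjamini-Hochberg at 0.05) on log2(normalized reads + 1). This scale understates differences of low genes. On simulated data with 12422 genes, the test recovered 96.8% of genes changed by 1 on the log2 scale and 99.1% of those changed by 2, with 13 false calls. The changed genes were drawn from the more abundant ones, and the simulated libraries lacked the difference between library sets. Recovery in the real libraries can therefore be lower. Lengths and positions come from GENCODE M21 (24366 symbols matched), with exon length as the union of annotated exons. Alternatives were edgeR 4.0.16 and DESeq2 1.42.0 on the recovered reads, other pseudocounts, filters and scalings, the library sets and leaving out libraries. Same-numbered libraries deviated together (r of 0.582, 0.637, 0.623, 0.556 and 0.631), which does not separate pairing from the set division. Blocked values are therefore printed where they change a call, and also for Dmd, Dag1 and Sgcb. Genes named were the 8 members and, of each partner list, the leading calls, the 2 smallest p-values and the tested further subunits; a few genes are not reported here. Cav3, Lama2, Itga7, Cd151 and Dysf were added after their values were seen. The members and lists were chosen with earlier results of these data known.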

Additional observations from a re-analysis of the deposited data

Results flagged for a closer look

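In a group of 5 libraries, a library was singled out when its gap to the nearest other one exceeded 0.71 of the group's range, which chance gives in about 1 of 20 groups; of 58 groups looked at, 10 had such a library. Replicate 1 accounts for all 4 among the members. Atrial replicate 1 was high for Dmd (7493 normalized reads, the others 2035 to 3069), for Utrn (4169, the others 2264 to 2518) and for Sgcd (1175, the others 894 to 958). Ventricular replicate 1 was high for Sgcd (1529, the others 923 to 1076). Without replicate 1 of both chambers, the Utrn difference was 0.90 on the log2 scale (limma, adjusted p = 0.00269) and that of Dmd -0.14.

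Among the partner genes, atrial replicate 1 was high for Lamb1 (3473) and Synm (633), ventricular replicate 1 for Itga6 (259) and Lama5 (460), ventricular replicate 1 was low for Cd151 (377), and atrial replicate 2 was low for Ank3 (910).

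The chamber difference was unequal between the library sets for 4 partner genes. Taken as the log2 difference in replicates 3 to 5 minus that in replicates 1 and 2, it was -1.65 for Cavin4, -1.09 for Sntb2, -1.16 for Synm and -0.58 for Cav3 (limma interaction, adjusted p = 0.0134, 0.0166, 0.0472 and 0.0382).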

How the results depend on the processing

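Utrn was called higher in atrial libraries in 22 of 23 alternatives, with log2 differences of 0.76 to 1.06, the exception being replicates 1 and 2 alone. The count of members called higher in atrial libraries was 1, but 0 within replicates 1 and 2 and 2 within replicates 3 to 5 (Sspn added), and 1 in each fit that left out 1 library. The count called higher in ventricular libraries was 1, and 2 (Sgca added) with DESeq2, with library set as a term, with the replicate block, within replicates 3 to 5 and without replicate 1 of both chambers, the last chosen after seeing the data. It was 0 under either scaling to equal totals, with no filter and within replicates 1 and 2, and 0 to 2 leaving out 1 library. Dtna kept its direction in all 23 and its call in 10. Dmd turned positive with DESeq2 (0.040), edgeR (0.045), equal totals (0.026) and replicates 1 and 2 alone (0.0062), and Sspn negative in the last (-0.026). Leaving out 1 library, Dmd ranged from -0.38 to 0.20, Dag1 from -0.079 to 0.35 and Sgcb from -0.21 to 0.30, never called. Among uncalled partner genes, Itga7 turned positive with DESeq2 (0.0052), with equal totals (0.051, or 0.019 without the most abundant genes), within replicates 3 to 5 (0.10) and leaving out 1 library (-0.067 to 0.068), and within replicates 1 and 2 Cav3 (0.19), Dysf (0.11), Lama2 (0.16) and Sntb2 (0.38) did. Partner genes called atrial (7) numbered 13 with library set as a term, 15 with the block, 4 within replicates 1 and 2, 18 within replicates 3 to 5, and 5 to 8 leaving out 1 library. Those called ventricular (4) numbered 2 with equal totals, 16 with set or block, 34 within replicates 3 to 5, 7 without replicate 1 of both chambers, and 3 to 7 leaving out 1 library, with 7 without atrial replicate 1. All genes called (1824) numbered 3955 with library set, 4017 with the block, 638 within replicates 1 and 2, 6561 within replicates 3 to 5 and 1365 to 1938 leaving out 1 library. The causes were not tested, and fits on fewer libraries also have fewer values. Among the complex genes named, depth limits Dtnb and Sntb2 most, with 14 and 32 reads in their lowest library.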

Other observations

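The genes of the members differ widely in length. Dmd spans 2257 kb of the genome, Sgcd 1093 kb and Utrn 487 kb, while Dag1 spans 59.3 kb and Sgcb 15 kb, so that among the 4 members that differed between library sets the longer 2 were lower and the shorter 2 higher in replicates 3 to 5. All 12226 tested genes with a position did not show this order: the Spearman correlation of gene span with the set difference was 0.08 across genes (genes are not independent replicates), and the median set difference was 0.10 among the longest 20% of genes and -0.09 among the shortest 20%. The chamber difference had a Spearman correlation of 0.10 with span, with medians of 0.06 and -0.08 in these groups.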
